A study of Mus musculus with 4 samples.

Results

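The VPS10P receptors are a small family of sorting receptors, followed here in single nuclei of the mouse hippocampus. They were chosen by gene symbol, as the human transgene SORL1 and the mouse genes Sorl1, Sort1, Sorcs1, Sorcs2 and Sorcs3, which are 6 of the 55403 genes counted (55401 mouse genes and the human genes MAPT and SORL1). All 6 were detected. WT was 1 library from wild-type mice. PS19 was 2 libraries, replicates 1 and 2, from mice carrying human MAPT with the P301S change (1N4R tau) under the mouse prion promoter Prnp on a B6;C3 background. TG_PS19 was 1 library from PS19 mice that also carried SORLA from the Rosa26 locus, driven by a CMV/β-actin promoter element. The animals were littermates, and frozen hippocampi were pooled within each group before nuclei were isolated. The number, age and sex of the animals are not given in the sources used here, nor is whether both PS19 libraries came from separate pools. The p-values therefore measure only the spread between the 2 PS19 libraries, which may be technical. The lone WT and TG_PS19 libraries were assumed to vary like that pair, and their own spread was not measured.

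All members are type I membrane proteins that share the VPS10P domain, which binds cargo, and a short cytoplasmic tail, which binds adaptors such as GGA proteins and retromer. They carry cargo between the trans-Golgi network, endosomes and the cell surface. SORLA, the product of SORL1, sorts the amyloid precursor protein, and variants of the gene SORL1 are linked to the risk of Alzheimer's disease. Sortilin, from Sort1, binds proneurotrophins, progranulin and apolipoprotein E. SorCS1, SorCS2 and SorCS3 act mainly in neurons, where SorCS2 pairs with the p75 neurotrophin receptor and SorCS3 is found at the postsynaptic density.

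In the annotation of GRCm38 (GENCODE M21), Sorl1 lies at chr9:41964720-42124297 on the minus strand and Sort1 at chr3:108284082-108361511 on the plus strand. Sorcs2 lies at chr5:36017180-36398139 on the minus strand. Sorcs1, at chr19:50143299-50678646 on the minus strand, and Sorcs3, at chr19:48206025-48805505 on the plus strand, are on the same chromosome and span 535348 and 599481 bases, against 77430 bases for Sort1. Antisense genes overlap Sorl1 (Gm16214), Sort1 (Gm12523) and Sorcs1 (Gm45352 and Gm26629). RefSeq promoters of the GRCm38.p6 build were matched for Sorl1, Sorcs1 and Sorcs3, and the 250 bases before the annotated start are printed 5′ to 3′ because each of these genes was called in a comparison below and Sorl1 is the mouse counterpart of the transgene. Capitals mark the GC box GGGCGG on either strand, which is the site bound by Sp1. The windows are chr9:42124298-42124547 for Sorl1, chr19:50678647-50678896 for Sorcs1 and chr19:48205775-48206024 for Sorcs3.
Sorl1: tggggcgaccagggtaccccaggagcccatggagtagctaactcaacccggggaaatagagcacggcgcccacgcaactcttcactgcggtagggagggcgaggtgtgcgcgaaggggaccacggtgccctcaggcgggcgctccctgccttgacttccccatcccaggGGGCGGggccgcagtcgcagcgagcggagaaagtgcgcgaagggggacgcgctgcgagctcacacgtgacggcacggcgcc
Sorcs1: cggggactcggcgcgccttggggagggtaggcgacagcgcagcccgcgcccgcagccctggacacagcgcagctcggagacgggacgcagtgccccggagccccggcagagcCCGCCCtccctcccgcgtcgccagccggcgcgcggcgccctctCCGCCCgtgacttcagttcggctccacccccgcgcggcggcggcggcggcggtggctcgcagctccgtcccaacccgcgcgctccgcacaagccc
Sorcs3: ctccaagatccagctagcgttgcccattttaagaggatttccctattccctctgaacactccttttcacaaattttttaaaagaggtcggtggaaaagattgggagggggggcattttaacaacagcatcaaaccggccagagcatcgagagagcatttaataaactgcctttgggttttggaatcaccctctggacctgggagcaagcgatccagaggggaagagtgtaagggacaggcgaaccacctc
The Sorcs1 window held 2 GC boxes, 41 CpG dinucleotides and 79.6% G and C. The Sorl1 window held 1 GC box, 26 CpG dinucleotides and 69.6% G and C. The Sorcs3 window held no GC box, 6 CpG dinucleotides and 48.4% G and C, close to the median of 52.4% over 32851 promoters. GGGCGG occurred in 32.7% of those promoters, TATAAA in 12.4% and the cAMP response element TGACGTCA in 1.55%, counted on both strands in windows of the same length. None of the 3 windows held TATAAA or TGACGTCA. RefSeq also has a second Sorl1 start, whose window (chr9:42077214-42077463) ends 47083 bases inside the gene and held no GC box and 47.2% G and C.

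The libraries held 4643 to 12762 barcodes and 20064025 to 48670533 UMIs (unique molecular identifiers, each standing for 1 captured RNA), and 4467 to 11458 nuclei were kept. Nuclei were grouped into named cell classes from marker lists, of which 11 were large enough to test, while 12.3% to 18.7% of kept nuclei stayed unnamed. A class name means nuclei like that type by its markers. Libraries shared 5 to 32 barcodes pairwise, at most 0.474% of the smaller library. The PS19 replicates differed by more than sampling noise in every class, most in inhibitory neurons (chi-square 2.57 times its degrees of freedom). The TG_PS19 library stood apart in sex-linked RNA. Of its nuclei, 51.0% had UMIs of Xist and none of 4 Y-linked genes, and 24.2% had the reverse, whereas in WT and PS19 0.112% to 0.244% were of the first kind and 67.9% to 75.3% of the second. Sex and the transgene therefore cannot be told apart in full, and the differences called in TG_PS19 that are described below are also given for its nuclei with Y-linked UMIs alone. The levels below are CPM, a gene's UMIs in a class scaled to 1000000 UMIs of that class in the same library, with exact 95% Poisson intervals that cover counting error only. As the kit reads the 3′ end, CPM does not correct for gene length, and genes are compared only with themselves.

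Human SORL1 marked the transgenic library. It had 2537 UMIs in 1969 barcodes of TG_PS19, against 2 UMIs in WT, 7 UMIs in PS19 replicate 1, all in 2 barcodes, and 0 in PS19 replicate 2. Over all kept TG_PS19 nuclei the level was 65.9 CPM. Its highest level was in endothelial cells, at 407 CPM (343 to 478, 146 UMIs), ahead of mural cells, at 295 CPM (232 to 370), and fibroblasts of the leptomeninges and perivascular space, at 256 CPM (222 to 294). Neighbouring intervals in this order overlapped. Astrocytes followed at 129 CPM (119 to 139), below all 3 vascular classes, and held 29.4% of SORL1 UMIs with 15% of all UMIs. In the other 7 classes SORL1 lay between 29.9 CPM, in Cajal-Retzius neurons, and 51.3 CPM, in oligodendrocyte precursors (OPC), with 40.3 CPM in CA1 pyramidal neurons and 31.9 CPM (28.1 to 36.0) in dentate granule neurons. The endothelial level of mouse Sorl1 was 8.35 CPM in TG_PS19 and 14.3 CPM in WT.

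Human SORL1 was called higher in TG_PS19 than in PS19 in 9 of the 10 classes tested, by edgeR's quasi-likelihood test with Benjamini-Hochberg adjustment over all genes of a class, where 4.7% of all gene and class pairs were called (2.91% higher, 1.79% lower). WT and PS19 lack the transgene, so SORL1 was tested on the strength of its TG_PS19 counts. These calls were therefore given by the design and show only that the transgene was detected. Inhibitory neurons were the exception (adjusted p = 0.328), although they had 44 SORL1 UMIs in TG_PS19 and 0 in WT and both PS19 libraries. Cajal-Retzius neurons had too few UMIs to be tested. Nuclei with a SORL1 UMI made up 34.6% of endothelial nuclei, 38.9% of fibroblasts, 31.7% of astrocytes and 22.5% of dentate granule neurons. Nuclei differ in depth between classes. Among nuclei with at least 1000 UMIs, each thinned to 1000, the shares were 28.2%, 18.6%, 11.2% and 2.52%. Thinning left out 59 of 240 endothelial nuclei, 9 of 342 fibroblasts, 15 of 1558 astrocytes and 1 of 994 dentate granule neurons. The WT library, which lacks the transgene, gave 0.0392% in thinned astrocytes and 0% in thinned dentate granule neurons. How much of the low SORL1 level in neurons came from free RNA was not tested.

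Within TG_PS19, SORL1 was higher in Xist-only than in Y-only nuclei in 10 of 11 classes. The intervals did not overlap in 5 classes, astrocytes, dentate granule neurons, endothelial cells, fibroblasts and oligodendrocytes. Endothelial nuclei had 638 CPM in Xist-only and 97.5 CPM in Y-only nuclei, a ratio of 6.54 that rests on 113 and 5 UMIs. The ratio was 2.33 in fibroblasts, 2.18 in astrocytes, 1.94 in dentate granule neurons and 1.82 in oligodendrocytes. CA1 pyramidal neurons had 41.5 and 39.1 CPM, and mural cells went the other way with 308 and 391 CPM. In Y-only nuclei alone the order of the top classes was therefore mural cells, fibroblasts (143 CPM), endothelial cells and astrocytes (78.4 CPM), and neighbours from fibroblasts on overlapped. The nuclei come from pooled animals in 1 library, so this contrast has no replicate.

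**Figure D1:**
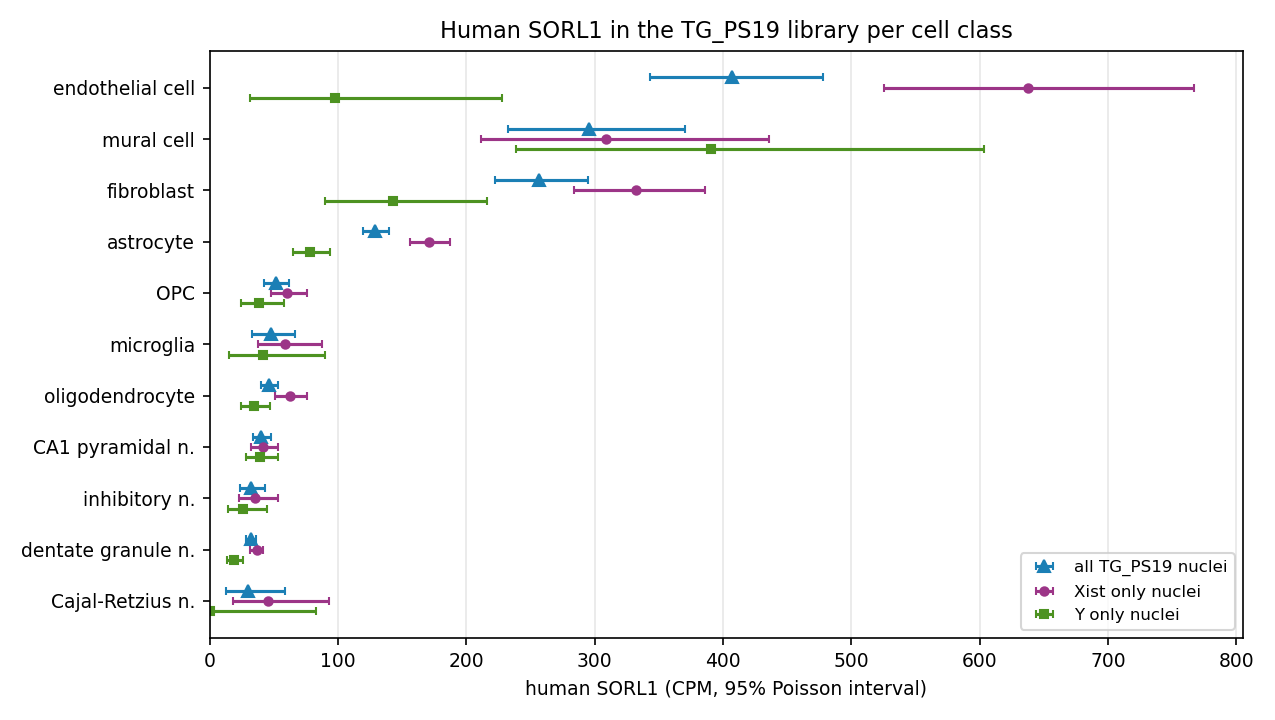
Human SORL1 in the TG_PS19 library, in CPM with 95% Poisson intervals (x axis) for each of 11 cell classes (y axis), over all nuclei, Xist-only nuclei and Y-only nuclei. Endothelial cells, mural cells, fibroblasts and astrocytes lie to the right of the other classes over all nuclei, and the Xist-only and Y-only points are farthest apart in endothelial cells (638 and 97.5 CPM).

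Endothelial clusters differed in SORL1. The cluster led by Gm5127 and Vwf, von Willebrand factor of larger and venous vessels, had 591 CPM (465 to 741), above 257 CPM (182 to 353) in the cluster led by Slco1a4 and Flt1, a transporter and a VEGF receptor. The cluster led by Eln and Bmx had 391 CPM (269 to 550), between both. Y-only endothelial nuclei had 5 UMIs in all, too few to split by cluster. The genes beside the insertion site were also read. Gt(ROSA)26Sor, the noncoding host gene of the Rosa26 locus, was called higher in TG_PS19 than in PS19 in astrocytes (log2 fold change 0.53 ± 0.17 SE, adjusted p = 0.030, edgeR) and lower in dentate granule neurons (-0.61 ± 0.17, adjusted p = 0.0062). With Y-only nuclei both calls were lost, and the astrocyte value turned to -0.30 (adjusted p = 0.595) while that of dentate granule neurons was -0.63 (0.195). The neighbours Setd5 and Thumpd3 were called in no class.

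The mouse receptors differed in the classes where they were highest. Sorl1 was highest in CA1 pyramidal neurons, dentate granule neurons and astrocytes, whose levels overlapped across libraries and all lay above those of inhibitory neurons (54.5 to 69.5 CPM). CA1 neurons had 176 CPM in the WT library, 148 and 143 CPM in the PS19 replicates 1 and 2 and 133 CPM in the TG_PS19 library. The CA1 class mixes a cluster led by Gm10754 and Galntl6, with 166 to 202 CPM of Sorl1, above dentate granule neurons and astrocytes in each library, and one led by Vwc2l and Npsr1, with 31.2 to 62.4 CPM. Astrocytes had 136 CPM in the WT library, 132 and 122 CPM in the PS19 pair and 111 CPM in the TG_PS19 library. Oligodendrocytes held 43.8 to 56.7 CPM and OPC only 2.15 to 6.88 CPM.

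Sort1 passed the low-count filter in all 11 classes, and its oligodendrocyte level stood above every other class in each library, at 286 CPM in the WT library, 283 and 262 CPM in the PS19 pair and 274 CPM in the TG_PS19 library. Dentate granule neurons followed with 174 to 194 CPM and microglia with 133 to 206 CPM, and these overlapped. OPC again had the least, 12.2 to 28.3 CPM. Sort1 was called in none of the 3 comparisons. Its smallest adjusted p in PS19 against WT was 0.068, in microglia (log2 fold change -0.49 ± 0.19 SE, edgeR).

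The 3 SorCS genes split between lineages. Sorcs1 was highest in oligodendrocytes (832 to 1038 CPM) and OPC (824 to 936 CPM), whose libraries overlapped. Dentate granule neurons had only 22.4 to 34.6 CPM. In the unnamed cluster led by Enpp6 and Anln, all markers of the oligodendrocyte list were raised. Its Sorcs1 level was 1157 CPM in the WT library, 1125 and 1414 CPM in the PS19 pair and 1360 CPM in the TG_PS19 library. Sorcs3 was highest in OPC (506 to 544 CPM), each library above the next class, and was high in CA1 neurons (327 to 458 CPM) and inhibitory neurons (359 to 430 CPM). Oligodendrocytes kept 110 to 139 CPM of Sorcs3, and astrocytes 3.16 to 6.39 CPM. Sorcs2 was highest in astrocytes, at 242 CPM in the WT library, 220 and 190 CPM in the PS19 pair and 223 CPM in the TG_PS19 library, each above the next class. Oligodendrocytes had 3.78 to 6.19 CPM of Sorcs2, so oligodendrocytes and astrocytes were opposite for Sorcs1 and Sorcs2.

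**Figure D2:**
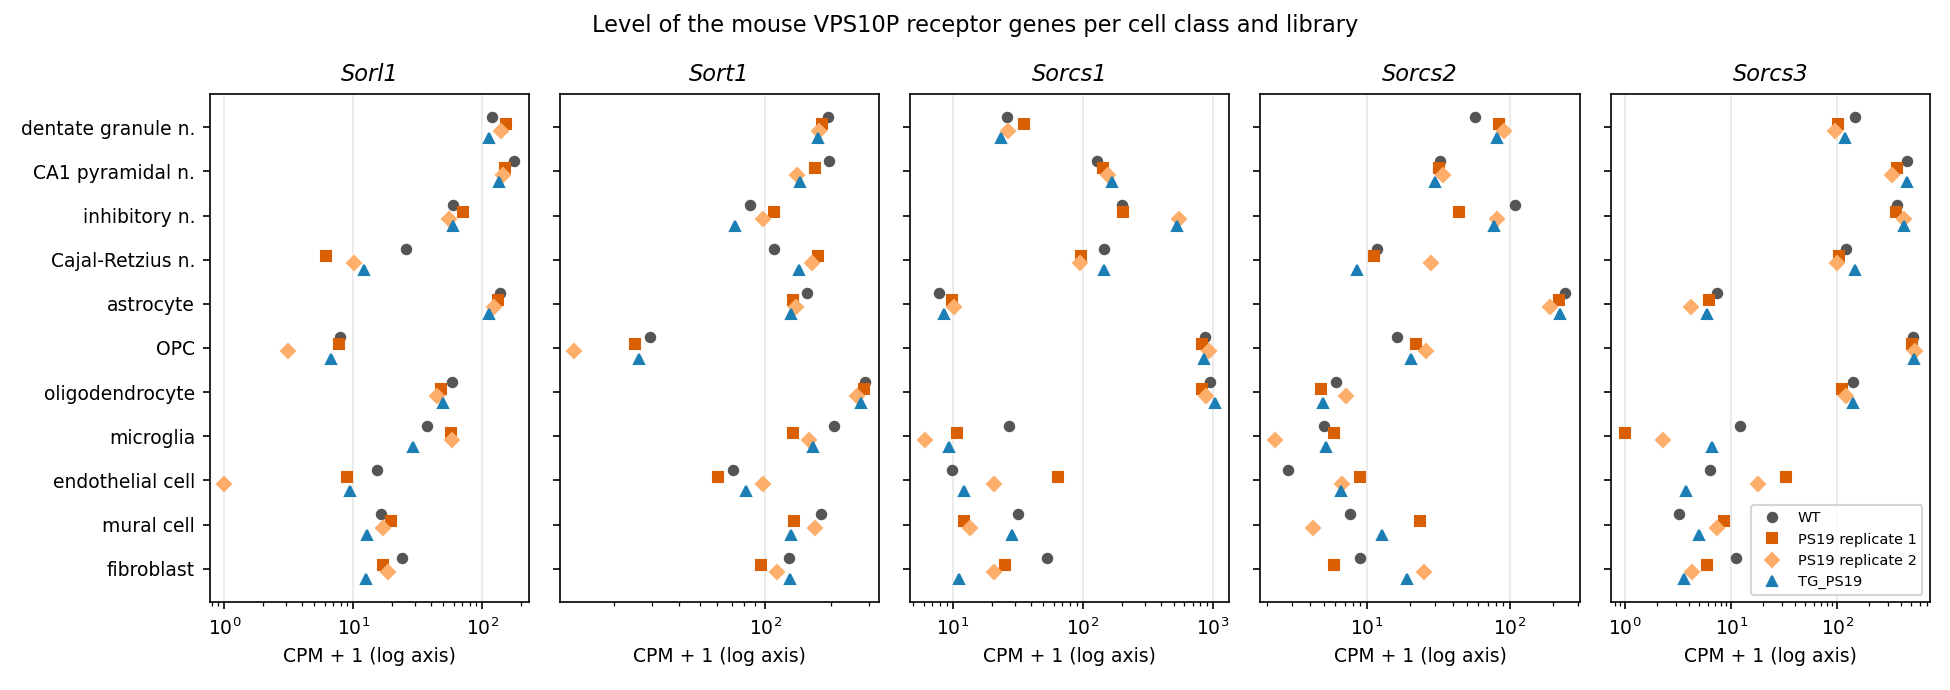
Level of each mouse VPS10P gene as CPM + 1 (log axis) in 11 cell classes (rows) and the 4 libraries (symbols). Sorcs1 and Sorcs3 lie farthest right in oligodendrocyte lineage classes and Sorcs2 in astrocytes.

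Clusters inside a class showed further contrasts, which are descriptions because the clustering used the expression of these nuclei. CA1 neurons split into a cluster led by Gm10754 and Galntl6 with high Sorcs3 (541 CPM in WT, 480 and 467 CPM in PS19, 631 CPM in TG_PS19) and low Sorcs1 (55.4 to 88.2 CPM). The cluster led by Vwc2l and Npsr1 was the reverse, with 32.8 to 64.9 CPM of Sorcs3 and 345 to 400 CPM of Sorcs1. In astrocytes, Sorcs2 was 230 to 261 CPM in the cluster led by Rorb and Slc1a2, the main glutamate transporter of astrocytes, and 77.0 to 142 CPM in the cluster led by Myoc and Gfap, the intermediate filament of reactive astrocytes. Inhibitory neurons differed between the PS19 replicates. Sorcs1 in their Pld5 and Ebf2 cluster was 135 CPM in WT, 169 CPM in PS19 replicate 1, 471 CPM in replicate 2 and 615 CPM in TG_PS19. Over the whole class it was 199 CPM in WT, 202 and 547 CPM in the replicates and 533 CPM in TG_PS19, and TG_PS19 against WT was not called (log2 fold change 1.51 ± 0.61 SE, adjusted p = 0.787, edgeR). It was called with a minimum of 1000 UMIs per nucleus (0.0485) and with doublets kept (0.0261). The TG_PS19 level was 729 CPM (665 to 798) in Xist-only and 418 CPM (363 to 478) in Y-only nuclei, intervals that do not overlap. The same held for Sorcs1 in CA1 neurons, at 198 and 110 CPM.

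**Figure D3:**
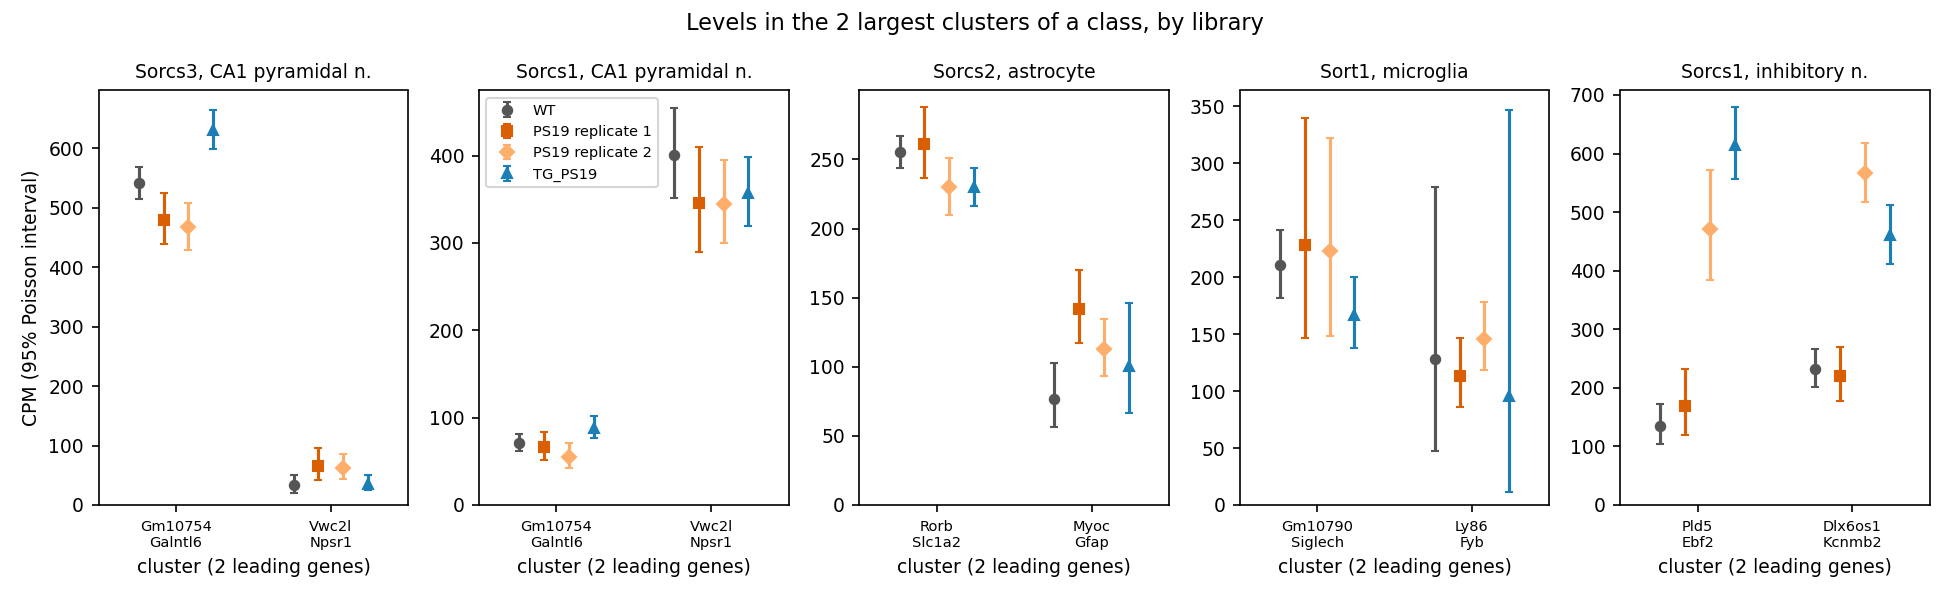
Levels in the 2 largest clusters of a class (x axis, named by their 2 leading genes) in CPM with 95% Poisson intervals (y axis), for the 4 libraries. Sorcs3 and Sorcs1 change places between the CA1 clusters, and in inhibitory neurons PS19 replicate 1 lies near WT and replicate 2 near TG_PS19.

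In PS19 against WT, 5 of the 43 mouse member and class pairs tested were called, 2 higher and 3 lower, where 3.15% of all gene and class pairs were called (1.5% higher, 1.65% lower). Of the 5 members, 3 were called in dentate granule neurons, a class in which 3.75% of genes were called. Sorcs2 was 56.1 CPM in WT and 82.3 and 89.3 CPM in the PS19 pair, and was 79.9 CPM in TG_PS19. It rose 1.56-fold in PS19 (log2 fold change 0.64 ± 0.11 SE, adjusted p = 4.73e-06, edgeR). Both PS19 replicates and TG_PS19 lay above WT. Sorcs3 was 147 CPM in the WT library, 101 and 94.8 CPM in the PS19 pair and 118 CPM in the TG_PS19 library. It fell by 0.57 on the log2 scale (SE 0.10, adjusted p = 4.79e-06), and both replicates lay below WT and TG_PS19. Sorl1 was 117 CPM (111 to 123) in WT, 151 CPM (139 to 163) and 140 CPM (130 to 149) in PS19 and 111 CPM (104 to 118) in TG_PS19. It rose 1.26-fold in PS19 (0.33 ± 0.10, adjusted p = 0.0350), and the intervals of both replicates lay above that of WT. Sort1 (175 to 181 CPM in PS19, 194 CPM in WT) and Sorcs1 were not called there. The summed level of the 9 dentate granule markers was 3387 CPM in the WT library, 3174 and 3264 CPM in the PS19 pair and 3567 CPM in the TG_PS19 library, and that of the oligodendrocyte list was 598, 463, 470 and 519 CPM.

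**Figure D4:**
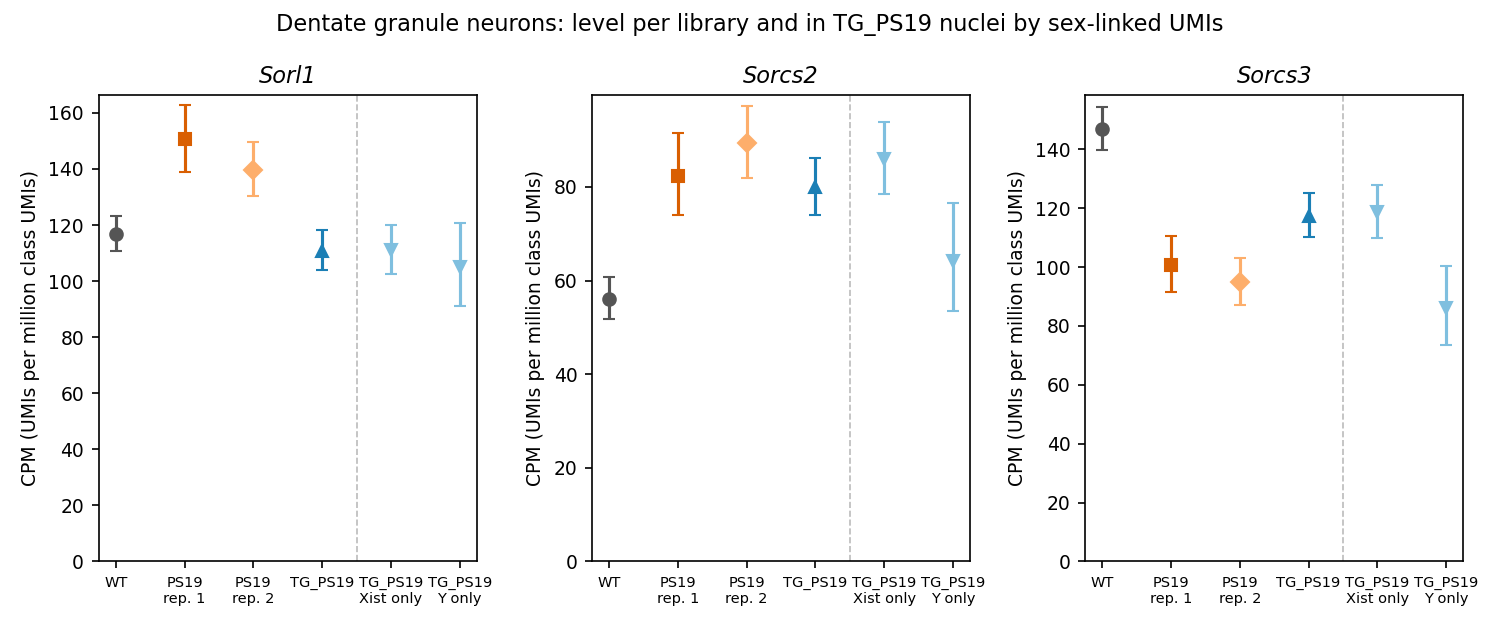
CPM with 95% Poisson intervals (y axis, from 0) of Sorl1, Sorcs2 and Sorcs3 in dentate granule neurons of the 4 libraries, and to the right of the dashed line in TG_PS19 nuclei split into Xist-only and Y-only. Both PS19 replicates lie above WT for Sorl1 and Sorcs2 and below it for Sorcs3.

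The remaining 2 calls were of Sorcs1, in glial and fibroblast classes where few UMIs were counted. Microglia had 26 UMIs in WT (26.1 CPM), 6 and 4 in PS19 (9.85 and 5.11 CPM) and 6 in TG_PS19 (8.39 CPM), and the log2 fold change in PS19 was -1.83 ± 0.58 SE (adjusted p = 0.0184, edgeR), where 11% of microglial genes were called. The oligodendrocyte marker list, 9 of 9 genes detected, summed to 1146 CPM in WT microglia, 637 and 609 CPM in the PS19 pair and 1073 CPM in TG_PS19, and its part in the Sorcs1 difference was not tested. Different clusters hold most microglia: the Gm10790 and Siglech cluster had 567 of the WT and 398 of the TG_PS19 nuclei, and the Ly86 and Fyb cluster had 201 and 232 of the PS19 nuclei. Fibroblasts had 92 UMIs of Sorcs1 in WT (52.1 CPM), 20 and 18 in PS19 (24.5 and 19.7 CPM) and 8 in TG_PS19 (10.3 CPM), with a log2 fold change of -1.22 ± 0.32 SE in PS19 (adjusted p = 0.0076), where 2.91% of genes were called. Sorcs1 was carried by the cluster led by Slc47a1 and Bnc2 (157 CPM in the WT library, 189 and 124 CPM in the PS19 pair and 59.9 CPM in the TG_PS19 library). That cluster had 159 nuclei in WT, 24 and 36 in PS19 and 35 in TG_PS19. The 9 astrocyte markers summed to 5176 to 6773 CPM in the fibroblast class, about as much as its own 9 markers (5407 to 6001 CPM), and the part of this in the difference was not tested. Both Sorcs1 calls were lost without the low-count filter, at adjusted p = 0.0567 in microglia and 0.659 in fibroblasts, and the microglial one also with doublets kept (0.0908). With DESeq2, 0 of the 43 mouse pairs were called and 4 had an unadjusted p under 0.05, against 12 with edgeR. The DESeq2 share over all gene and class pairs was not counted, so this drop cannot be called particular to the members. The dentate granule Sorl1 call was also lost without the filter (adjusted p = 0.172) and with doublets kept (0.118).

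No member pair was called in CA1 pyramidal, inhibitory or Cajal-Retzius neurons, astrocytes, oligodendrocytes, OPC, endothelial or mural cells. In CA1 neurons Sorcs3 was 452 CPM in the WT library, 367 and 327 CPM in the PS19 pair and 458 CPM in the TG_PS19 library, with a log2 fold change in PS19 of -0.44 ± 0.14 SE (adjusted p = 0.378, edgeR). Microglial Sorl1 was 36.1 CPM in the WT library, 55.8 and 57.4 CPM in the PS19 pair and 28.0 CPM in the TG_PS19 library, from 20 to 45 UMIs (adjusted p = 0.20 in PS19 against WT). The median log2 fold change of mouse member pairs was -0.10, against 0.01 over all pairs.

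In TG_PS19 against PS19, 10 of 53 member pairs were called, 9 of them SORL1, which PS19 lacks. Of the mouse member pairs, 1 of 43 was called (background 4.7%). The 1 mouse pair was Sorcs3 in dentate granule neurons (10.2% of genes called), which rose 1.28-fold (0.36 ± 0.11 SE, adjusted p = 0.0116, edgeR). It was not called when scaled by library totals (adjusted p = 0.0719) or by DESeq2 (0.507), and in Y-only nuclei it turned to -0.11 (0.808). Xist-only nuclei had 119 CPM of Sorcs3 and Y-only nuclei 86.2 CPM. Sorl1 in these neurons missed the threshold (-0.29 ± 0.10, adjusted p = 0.0510) and passed it with library totals (0.0037). Its Xist-only and Y-only levels were 111 and 105 CPM, both below the PS19 libraries. The median log2 fold change of mouse member pairs was 0.06, against -0.01 over all pairs. DESeq2 called 4 pairs and no mouse pair (3 at an unadjusted p under 0.05, 8 with edgeR), and its share over all pairs was not counted.

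In TG_PS19 against WT, 11 of 53 pairs were called, again 9 of SORL1, which WT lacks. Of the mouse member pairs, 2 of 43 were called, where 1.98% of all pairs were called (1.36% higher, 0.623% lower). Sorcs2 was higher in dentate granule neurons (0.63 ± 0.13 SE, adjusted p = 5.04e-05, edgeR), where 8.08% of genes were called. Its levels were 85.9 CPM in Xist-only and 64.3 CPM in Y-only nuclei, and with Y-only nuclei the call was lost (0.29, adjusted p = 0.501). Sorcs1 was lower in fibroblasts (-2.26 ± 0.49, adjusted p = 5.9e-04, 2.21% of genes called), a call lost with doublets kept (-0.83, adjusted p = 0.176) and with Y-only nuclei (0.594). DESeq2 called neither. This comparison shares the WT library, and the one before it the PS19 libraries, with PS19 against WT, so their values stand side by side without an overlap test.

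**Figure D5:**
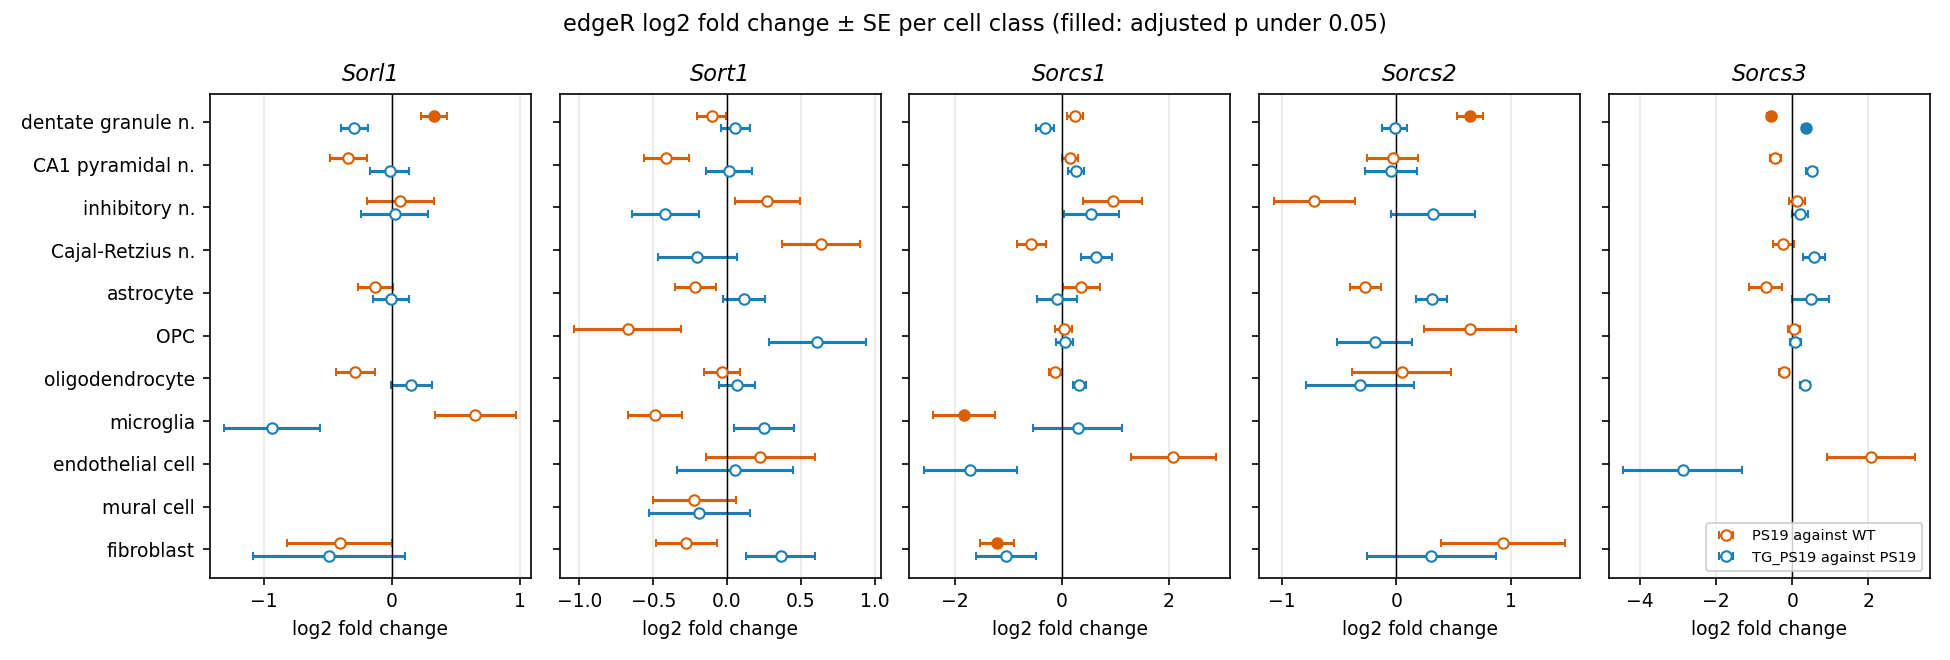
edgeR log2 fold change ± SE (x axis) of the 5 mouse members in each tested class (y axis), for PS19 against WT and TG_PS19 against PS19. Filled symbols, at an adjusted p under 0.05, are those of Sorl1, Sorcs2 and Sorcs3 in dentate granule neurons and of Sorcs1 in microglia and fibroblasts.

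The PS19 effect on a member was then compared between dentate granule neurons, oligodendrocytes and astrocytes by an interaction term, in 30 tests over 5 genes, 3 class pairs and 2 comparisons. For Sorl1 the effect was higher in dentate granule neurons than in oligodendrocytes by 0.58 ± 0.16 SE on the log2 scale (adjusted p = 0.0103, edgeR, 4.24% of genes called), and than in astrocytes by 0.51 ± 0.13 (adjusted p = 0.0103, 3.83% of genes called). For Sorcs2 the effect was higher than in astrocytes by 0.97 ± 0.14 (adjusted p = 5.25e-07). Astrocytes lay in different clusters by group: the Myoc and Gfap cluster held 223 of 2562 WT, 195 of 598 and 206 of 664 PS19 and 95 of 1558 TG_PS19 astrocytes. Within the Rorb and Slc1a2 cluster Sorcs2 was 255 CPM in WT and 261 and 230 CPM in the PS19 pair, and within the Myoc and Gfap cluster 77.0, then 142 and 112 CPM. Neither cluster was lower than WT in both replicates, whereas the whole class was (242 CPM, then 220 and 190 CPM). Sorl1 was 136 CPM in WT and 112 and 110 CPM in the PS19 pair in the former cluster, and 137, then 169 and 147 CPM in the latter. The difference between oligodendrocytes and astrocytes was not called for Sorl1 (-0.11, adjusted p = 0.859). In TG_PS19 against PS19, the Sorcs1 effect was lower in dentate granule neurons than in oligodendrocytes (-0.58 ± 0.17, adjusted p = 0.0355, 2.16% of genes called), and the same contrast for Sorl1 was not called (-0.40, adjusted p = 0.267). With Y-only nuclei the Sorcs1 call was lost (-0.79 ± 0.29, adjusted p = 0.368).

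The other genes of the pathway were 41 ligands, co-receptors, processing enzymes and tail adaptors of these receptors, of which 38 passed the filter in at least 1 class, giving 349 pairs. In PS19 against WT, 31 pairs of 12 genes were called, 6 higher and 25 lower, which is 8.88% against 3.15% over all pairs. Ligands gave 3 higher and 10 lower of 70 pairs, co-receptors 1 and 15 of 66, sheddases and processing enzymes 0 of 54, and adaptors 2 and 0 of 159. Clu, the apolipoprotein clusterin, fell in dentate granule neurons, microglia, oligodendrocytes and fibroblasts. In oligodendrocytes it was 171 CPM in the WT library, 66.1 and 56.4 CPM in the PS19 pair and 102 CPM in the TG_PS19 library (-1.45 ± 0.13 SE, adjusted p = 6.31e-08, edgeR). The astrocyte marker list, which does not hold Clu, summed there to 638 CPM in the WT library, 277 and 237 CPM in the PS19 pair and 471 CPM in the TG_PS19 library, and its part was not tested. Apoe, the lipid carrier that sortilin binds, fell in dentate granule neurons from 258 CPM in WT to 135 and 110 CPM in PS19 (-1.07 ± 0.10, adjusted p = 8.01e-25), with 170 CPM in TG_PS19. The astrocyte list in these neurons was 958 CPM in the WT library, 939 and 962 CPM in the PS19 pair and 915 CPM in the TG_PS19 library. Microglial Lpl, lipoprotein lipase, rose in PS19 from 6.01 CPM to 90.3 and 68.9 CPM (3.68 ± 0.45, adjusted p = 1.08e-13).

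In TG_PS19 against PS19, 25 partner pairs of 14 genes were called (7.16%), 12 higher and 13 lower, with none among sheddases. In microglia Lpl (5.59 CPM), Apoe, Psap and Grn, the last being progranulin, fell. Apoe was 845 CPM in TG_PS19, 2394 and 1720 CPM in PS19 and 1163 CPM in WT (-1.20 ± 0.15 SE, adjusted p = 7.59e-14, edgeR). Grn was 133 CPM in TG_PS19, 332 and 211 CPM in PS19 and 197 CPM in WT (-0.93 ± 0.20, adjusted p = 1.07e-04). Astrocyte Clu was 760 CPM in TG_PS19, 2138 and 1213 CPM in PS19 and 1514 CPM in WT (-0.96 ± 0.16, adjusted p = 2.49e-07). Both PS19 values of Clu differ by more than the gap of replicate 2 to TG_PS19, and the cluster shares of astrocytes given above differ between these groups. The part of those shares, and of the microglial clusters, in these values was not tested. With Y-only nuclei Apoe was 620 CPM (-1.67, adjusted p = 1.08e-14), Clu was 730 CPM (-1.03, 1.98e-07), Psap fell by 1.10 (2.55e-04) and Lpl had 0 UMIs, while the Grn call was lost (131 CPM, -0.97, 0.0576). In TG_PS19 against WT, 15 pairs of 9 genes were called (4.30%), 1 higher and 14 lower. Bdnf, a proneurotrophin ligand, was 103 CPM in WT dentate granule neurons, 74.8 and 74.6 CPM in the PS19 pair and 61.5 CPM in TG_PS19 (-0.62 ± 0.12, adjusted p = 3.00e-05). The 1 partner called higher was Gfra1, a co-receptor of GDNF, in dentate granule neurons (0.45 ± 0.11, adjusted p = 0.0025), at 133 CPM against 105 CPM. With Y-only nuclei Gfra1 was 136 CPM (0.47, adjusted p = 0.0402), and the Bdnf call was lost (69.0 CPM, -0.48, 0.0865).

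The genes whose level across 44 points (11 classes in 4 libraries) was most like each member's were ranked among 11628 genes by Pearson's r on log2(CPM + 10), as a description of points that share libraries and depth. For SORL1 they were Tsix (0.908), Xist (0.903) and Gm45854 (0.693), the first pair being RNAs of the X-inactivation centre, and Xist also sets TG_PS19 apart. Sorl1 was closest to Chst1 (0.891), Agfg2 (0.849) and Pigk (0.837). Sort1 had lower values, led by Acap2 (0.715), Fnbp1 (0.699) and Fam53b (0.666). Sorcs1 was closest to its own overlapping antisense gene Gm45352 (0.946), Bcat1 (0.886) and Asic1 (0.873). As the strand setting of the counting is not given in the sources used here, reads of Sorcs1 and Gm45352 may not be separable. Sorcs2 was closest to Ngef (0.918), Kcnn3 (0.910) and Gm48747 (0.906), and Sorcs3 to Anks1b (0.967), Gm1992 (0.949) and Gm19938 (0.947). Among the members themselves, Sorcs1 and Sorcs3 were the most alike (0.829), ahead of Sorl1 with Sorcs2 (0.612) and with Sort1 (0.514).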

How the data were processed

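Nuclei were profiled by 10x Genomics 3′ single-nucleus RNA-seq (kit v3.1, 10000 nuclei loaded per library, per the labels' protocols). The authors deposited raw UMI counts per gene and barcode, made with Cell Ranger 7.1.0 and GRCm38 per the submitters' processing notes. Nuclei with at least 500 UMIs, 300 genes and at most 5% mitochondrial UMIs were kept. Doublets were removed by simulated doublets (2 per nucleus, expected rate 0.8% per 1000 nuclei). Nuclei were clustered with 2000 variable genes (members left out), 30 components, 15 neighbours and Leiden resolution 1.0 (leidenalg 0.10.2, scikit-learn 1.9.0), giving 37 clusters. Clusters were named only where their marker list was raised and their leading genes did not go against it.

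UMIs were summed per class and library in classes with at least 50 nuclei in each library, and tested with edgeR 4.0.16 (quasi-likelihood, TMM, low-count filter) in R 4.3.3 over all genes. All 4 libraries entered 1 fit, so its 1 residual degree of freedom comes from the PS19 pair. Alternatives were DESeq2 1.42.0, other scalings and filters, doublets kept, another resolution and Y-only TG_PS19 nuclei. Tested on simulated data, edgeR made more false calls than its threshold allows, and DESeq2 made none but recovered fewer changed genes. The Y-only fits of partners, locus genes and interactions were chosen after seeing the data. CPM are UMIs per 1000000 class UMIs. Every member is named, and of the partners at most the 8 pairs with the smallest adjusted p in each comparison. A gene of the partner list that is counted is not reported by name here. The 6 members and all lists were chosen with earlier results of these data known.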

Additional observations from a re-analysis of the deposited data

Results flagged for a closer look

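In 4 of the 30 tests the effect of a comparison differed between cell classes by an interaction term (edgeR, Benjamini-Hochberg adjusted p under 0.05). In the class pairs and comparisons that held these calls, 2.16% to 4.24% of all genes were called. The PS19 against WT effect on Sorl1 was higher in dentate granule neurons than in oligodendrocytes by 0.58 and than in astrocytes by 0.51 on the log2 scale. For Sorcs2 it was higher in dentate granule neurons than in astrocytes by 0.97. Neither astrocyte cluster described above was lower than WT in both PS19 replicates for Sorcs2, and the cluster shares differed between groups. The part of those shares in this difference was not tested. The TG_PS19 against PS19 effect on Sorcs1 was -0.58 in dentate granule neurons relative to oligodendrocytes, a call lost with Y-only nuclei (-0.79, adjusted p = 0.368).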

How the results depend on the processing

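The number of member pairs called fell from 5 to 0 with DESeq2 and to 2 without the low-count filter in PS19 against WT, from 10 to 4 with DESeq2 in TG_PS19 against PS19, and from 11 to 3 with DESeq2, to 6 without the filter and to 7 with Y-only nuclei in TG_PS19 against WT. The counts for both TG_PS19 comparisons include SORL1, which WT and PS19 lack. How many of all gene and class pairs were called under these settings was not counted, so the falls cannot be called particular to the members. The cause was not tested. Sorcs3 in dentate granule neurons reversed in TG_PS19 against PS19 with Y-only nuclei (-0.11), and Sorcs2, near 0 in that comparison, turned to 0.0081 without the filter and to 0.058 (-0.080 without replicate 1) without PS19 replicate 2. With Y-only nuclei human SORL1 was 0 CPM in Cajal-Retzius neurons, 78.4 in astrocytes, 18.8 in dentate granule neurons, 97.5 in endothelial cells, 143 in fibroblasts, 391 in mural cells, 34.3 in oligodendrocytes and 38.4 in OPC, and with doublets kept 324 in endothelial cells. With Y-only nuclei the difference of the Sorl1 effect in TG_PS19 against PS19 was -0.65 between dentate granule neurons and astrocytes, now past the threshold. That of Sorcs2 between the same classes also passed it, at -0.70 against -0.34 with all nuclei, where 333 of 15320 genes were called. The Sorl1 difference reversed to -0.25 between oligodendrocytes and astrocytes, not called. Shares with SORL1 among nuclei of at least 1000 UMIs, thinned to 1000, were 11.2% in astrocytes and 2.52% in dentate granule neurons. They were 28.2% in endothelial cells, 18.6% in fibroblasts and 4.84% in microglia. Leaving out either PS19 replicate left no residual degrees of freedom and so gave values without a test: in PS19 against WT, dentate granule Sorcs2 ranged from 0.56 to 0.71, Sorl1 from 0.29 to 0.38 and Sorcs3 from -0.60 to -0.54. Of values for single member pairs under alternatives, 122 were unchanged, 20 lost the call, 5 gained it and 3 reversed. Unchanged means the same direction and the same side of the threshold. For the fits without a PS19 replicate, which have no test, it means the same direction and a value within the SE of the main one. No paired analysis was possible because WT and TG_PS19 each have 1 library and carry no replicate number in the labels. Few UMIs limit Sorcs1 in microglia and fibroblasts.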

Other observations

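Cell classes too small to test ranged widely in Sorl1. Choroid plexus epithelium and ependymal cells had 0 nuclei in WT. Choroid plexus epithelium had 0 to 17.7 CPM in the PS19 pair and TG_PS19. Committed oligodendrocyte precursors had 0 UMIs in each library, from only 1 nucleus in WT, 15 and 21 in the PS19 pair and 9 in TG_PS19. Ependymal cells, the ciliated lining of the ventricles, had 233 CPM in PS19 replicate 1, 216 CPM in replicate 2 and 140 CPM in TG_PS19, from 6 to 17 UMIs. T cells had 213 CPM in the WT library, 381 and 209 CPM in the PS19 pair and 149 CPM in the TG_PS19 library, from 1 to 8 UMIs. Sorcs2 in CA3 pyramidal neurons was 60.1 CPM (82 UMIs) in WT, 132 and 105 CPM in the PS19 pair and 145 CPM in TG_PS19, with 25 to 74 nuclei a library and no test. The cluster led by Sntb1 and Fabp7, with 283 WT nuclei and 2 from TG_PS19, had 1312 CPM of Sorcs1 in WT.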
